A study of Homo sapiens with 24 samples.

Results

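The comparison is between 6 RNA-seq libraries from OCUG-1 cells, a human gallbladder cancer line, chosen by their labelled arm out of 24 libraries in the series. The first arm received 1.25 µM sorafenib together with 1 µM IACS-010759 and is called the combination. The arm it is set against received 10 µM sorafenib alone. Each arm had 3 independent biological replicates, harvested after 72 h in DMEM with serum. The same line also received 1.25 µM sorafenib alone or vehicle (matched DMSO), with 3 replicates each, and these libraries shared the fit. HuCCT1, a second biliary tract cancer line, received the same arms in RPMI-1640. The combination and the 10 µM arm differ in sorafenib dose and in IACS-010759 together, and no arm held IACS-010759 alone, so what each drug contributed to a difference cannot be told apart. OCUG-1 is a single line, and p-values measure the spread between its cultures. In bulk RNA, fewer cells of a kind and less mRNA per cell cannot be told apart.

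Sorafenib inhibits several kinases, among them RAF kinases and the VEGF receptors, and is also known to impair mitochondrial respiration. IACS-010759 blocks complex I, where electrons from NADH enter the respiratory chain. Cells that lose respiration are known to lean on glycolysis and to switch on the integrated stress response, in which the transcription factor ATF4 drives genes for amino acid supply. The comparison asks what separates treatments whose profiles lie close together when each is set against vehicle.

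Both arms lay far from vehicle and near each other. On principal component 1, which held 69% of the variance of the 12 OCUG-1 libraries, the combination scored 68.6 to 80.8 and the 10 µM arm 78.7 to 89.6, while the other 6 libraries scored -87.8 to -67. Component 2 (7.15%) put the combination at 1.88 to 31.3 and 10 µM sorafenib at -38.3 to -1.67. Component 3 (5.35%) put the combination at -29.9 to -9.67 and 10 µM sorafenib at 1.31 to 37.6. Neither of these components showed overlap between the arms. On component 3 replicate 3 was the lowest combination library and replicate 3 was also the highest 10 µM library, whereas the libraries numbered 2 lay nearest each other.

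**Figure D1:**
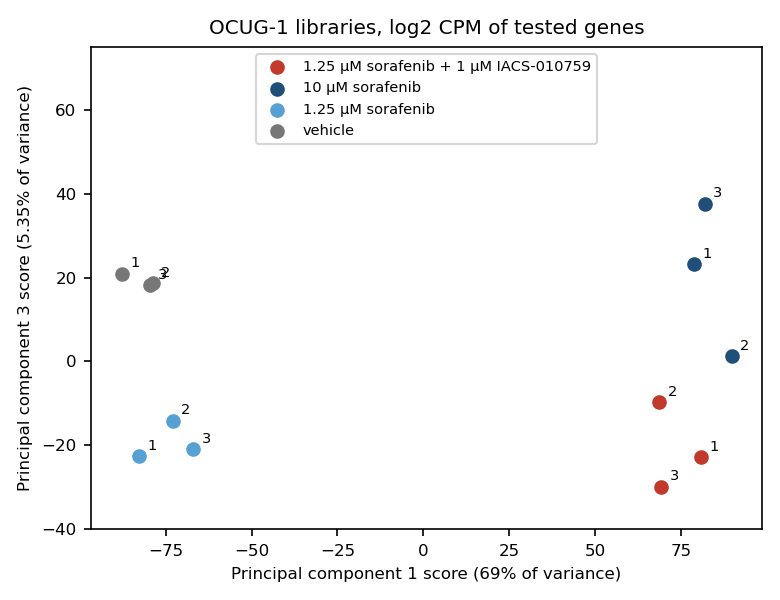
Scores of the 12 OCUG-1 libraries on principal component 1 (x axis) and component 3 (y axis) of log2 CPM (counts scaled to library size), with replicate numbers beside the points. The combination and 10 µM libraries share the right side of the plot, from 68.6 to 89.6 on the x axis, and separate on the y axis between -9.67 and 1.31.

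Between the arms, 1077 of 20511 tested genes (5.25%) were called at an adjusted p under 0.05 with edgeR's quasi-likelihood test. Of all genes tested, 651 (3.17%) were higher in the combination and 426 (2.08%) lower, and 238 of the called genes differed at least 2-fold. The median absolute log2 difference over all tested genes was 0.23, whereas it was 0.66 for the combination over vehicle and 0.72 for 10 µM sorafenib over vehicle. The comparisons with vehicle called 12213 and 12943 genes, and they share the vehicle libraries. For 5093 genes (24.8%) the 3 libraries of an arm lay above all 3 of the other. Single libraries moved the count: it was 197 without replicate 3 of the combination, 336 without replicate 3 of the 10 µM arm, 479 without replicate 2 of the combination and 688 without replicate 1 of the 10 µM arm. The split moved as well, with 868 of 1740 called genes higher under DESeq2, 145 of 197 without combination replicate 3 and 601 of 1367 without replicate 2 of the 10 µM arm. A call is named stable below where it was kept under all 14 alternative analyses. Calls that ended without a library named below may have ended under other alternatives as well.

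The libraries carried the markers of a biliary epithelial line, given here in TMM-scaled CPM, that is counts scaled to an equal library size. In both arms 10 of 14 biliary epithelial markers averaged at least 10 CPM, with KRT8 at 985 CPM in the combination and 853 CPM at 10 µM sorafenib, while the chloride channel gene CFTR stayed at or under 0.399 CPM in every library. No hepatocyte or immune marker exceeded 5.83 CPM in the 6 libraries. Of 8 fibroblast markers COL1A1 and LUM averaged above 10 CPM in both arms, with LUM at 32.9 CPM in the combination and 52.0 CPM at 10 µM sorafenib, and THY1 averaged 6.13 CPM in the combination and 11.3 CPM at 10 µM sorafenib. The summed level of the 8 was 59.9 to 78.6 CPM in the combination and 76.9 to 119.5 CPM at 10 µM sorafenib, all 6 that were tested had a log2 difference below 0 (median -0.66, 1 called), and their part in the results was not tested. The total count was 16973778 to 20339885 in the combination and 17982911 to 24019011 at 10 µM sorafenib.

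Among called protein-coding genes that averaged at least 10 CPM in the higher arm and did not overlap between the arms, CYP1A1 had the largest rise (ENSG00000140465, GRCh38 chromosome 15, 74719542 to 74725610). It encodes the cytochrome P450 that is the classic target of the aryl hydrocarbon receptor, and it had 20.5, 12.3 and 9.79 CPM in the combination against 1.26, 1.25 and 2.72 CPM at 10 µM sorafenib. All 3 combination libraries lay above the others, with 177 to 359 counts per library in the combination and 28 to 48 at 10 µM sorafenib. The log2 fold change was 3.06 (SE 0.30, adjusted p = 3.78e-05), and the call was stable. CYP1A1 averaged 2.87 CPM in vehicle and 6.51 CPM with 1.25 µM sorafenib alone. In HuCCT1 the same comparison gave a log2 fold change of 3.48 (adjusted p = 5.63e-06).

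CYP1B1, a second target of that receptor, averaged 21.9 ± 5.34 CPM in the combination and 8.86 ± 3.61 CPM at 10 µM sorafenib (SD, n = 3 each), a log2 fold change of 1.31 (adjusted p = 0.0197). Its call ended without combination replicate 1, combination replicate 3 or 10 µM replicate 1. AHRR, the receptor's repressor, averaged 2.29 CPM in the combination and 1.17 CPM at 10 µM sorafenib, with no overlap but an adjusted p of 0.0531. TIPARP, which the receptor also induces, had a log2 difference of -0.27 (adjusted p = 0.202). In the list of xenobiotic metabolism genes 3 of 23 tested members rose (3.17% of all tested genes did) and 1 fell (2.08%), with a median log2 difference of 0.26 against 0.00 over all tested genes. The third to rise was the organic anion exporter ABCC3, at 157, 234 and 219.7 CPM in the combination against 133, 109 and 98.7 CPM at 10 µM sorafenib (log2 fold change 0.84, adjusted p = 0.00326, stable). The one that fell was the retinaldehyde dehydrogenase ALDH1A1, by 0.52 on the log2 scale, a call that ended without replicate 3 of either arm.

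The promoter of CYP1A1 is shown because this gene came first in that ranking. The 250 bases before its start (RefSeq, GRCh38.p14, chr15:74725529-74725778, minus strand) hold 1 match to GCGTG, the core that the aryl hydrocarbon receptor is known to bind. Capitals mark it, beginning 57 bases before the start. The core was searched on both strands, and 32.2% of the 35116 promoters in the table hold it. Sequence further upstream was not searched, and binding of the receptor to this match was not tested.
CYP1A1: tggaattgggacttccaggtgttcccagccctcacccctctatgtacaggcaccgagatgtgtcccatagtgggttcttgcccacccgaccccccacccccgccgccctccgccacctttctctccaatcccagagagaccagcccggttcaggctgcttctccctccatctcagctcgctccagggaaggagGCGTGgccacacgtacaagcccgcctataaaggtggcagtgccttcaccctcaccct

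VIPR1, MLPH and IGFBP1 came next in the same ranking. VIPR1, a receptor for vasoactive intestinal peptide, had 119.8, 171 and 124 CPM in the combination against 49.3, 29 and 57 CPM at 10 µM sorafenib (log2 fold change 1.62, adjusted p = 0.000569). MLPH, which links pigment and secretory vesicles to myosin, had 297, 535 and 511 CPM in the combination against 199, 142 and 144 CPM at 10 µM sorafenib (log2 fold change 1.47, adjusted p = 0.000867). IGFBP1, a secreted binder of insulin-like growth factors, had 136, 138 and 128 CPM in the combination against 53.6, 32.8 and 66 CPM at 10 µM sorafenib (log2 fold change 1.40, adjusted p = 0.00235). The arms did not overlap for any of these genes, which the ranking rule required, and the calls were stable.

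These genes stood in different places relative to vehicle. PTHLH, the parathyroid hormone-related peptide that tumours can secrete, had 175, 191 and 177 CPM in the combination against 94.8, 64.5 and 61.6 CPM at 10 µM sorafenib, and both arms lay above its vehicle mean of 19.6 CPM. The axon guidance gene DRAXIN was likewise above its vehicle mean of 2.44 CPM, at 15 ± 2.62 CPM in the combination and 5.79 ± 1.75 CPM at 10 µM sorafenib (SD, n = 3 each). In contrast both arms lay below vehicle for the arginine deiminases PADI2 and PADI3. PADI3 averaged 263 CPM in the combination and 112 CPM at 10 µM sorafenib, with 424 CPM in vehicle, and PADI2 averaged 19.7 CPM in the combination and 8.13 CPM at 10 µM sorafenib, with 42.6 CPM in vehicle. AMTN, a secreted protein of enamel, had 187, 171 and 179 CPM in the combination against 80.1, 56.9 and 85.5 CPM at 10 µM sorafenib, with 206 CPM in vehicle. The copine CPNE7 averaged 441 CPM in the combination and 186 CPM at 10 µM sorafenib, with 437 CPM in vehicle. MDGA1, a membrane-anchored adhesion protein, and CIITA, the master activator of MHC class II genes, each had a log2 fold change of 1.15 (adjusted p = 0.000343 for MDGA1 and 0.000179 for CIITA). These calls were stable except that of CPNE7, which ended without combination replicate 3.

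**Figure D2:**
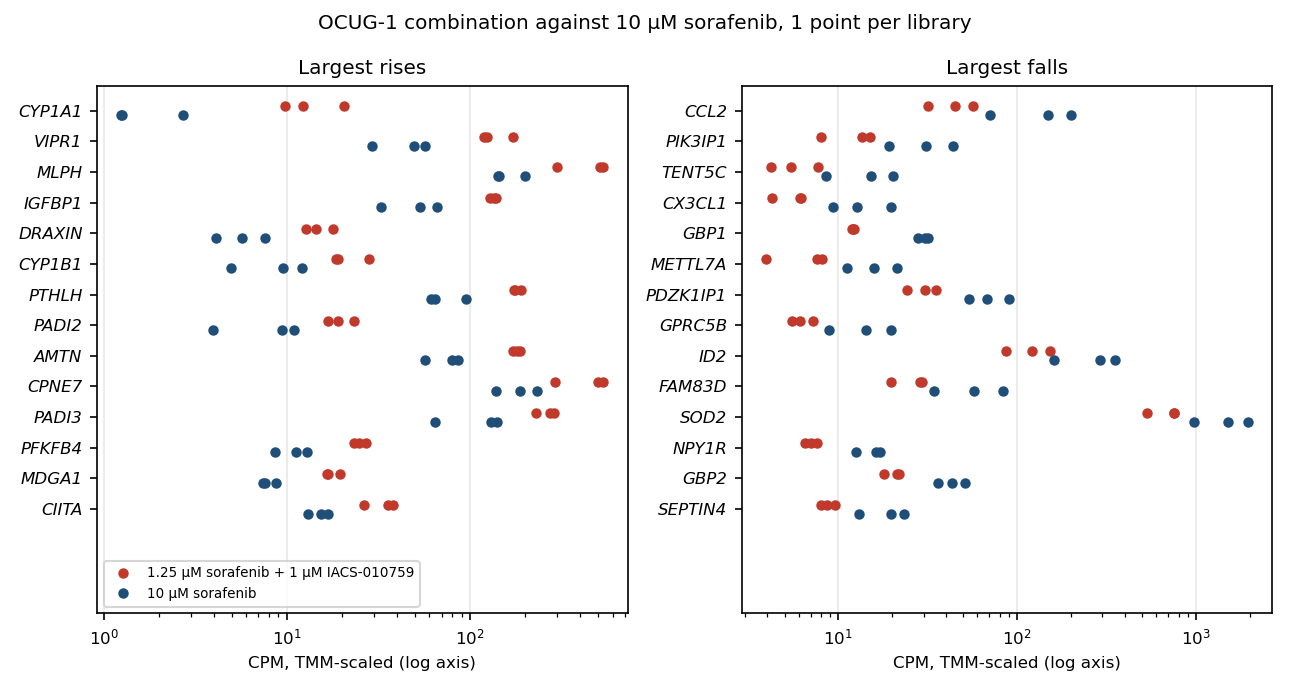
CPM (x axis, log scale, TMM-scaled) of the 14 largest rises (left) and the 14 largest falls (right) in OCUG-1, 1 point per library, with the combination drawn above 10 µM sorafenib for each gene. The arms do not overlap for these genes because the ranking rule required it, and the gap is narrowest for falls such as ID2, at up to 152 CPM in the combination and from 161 CPM at 10 µM sorafenib.

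Genes of coagulation and plasminogen activation rose in part. Of 14 tested members 6 were higher in the combination (3.17% of all tested genes were) and 0 lower, with a median log2 difference of 0.04 over the list. Tissue factor (F3, GRCh38 chromosome 1, 94529225 to 94541800), the membrane protein that starts clotting, had 256, 379.6 and 360.3 CPM in the combination against 182, 169.6 and 150.3 CPM at 10 µM sorafenib (log2 fold change 0.99, SE 0.14, adjusted p = 0.000502). F2RL1, a protease-activated receptor that responds to trypsin, had 261, 244 and 204 CPM in the combination against 123, 80.5 and 118 CPM at 10 µM sorafenib (log2 fold change 1.14, adjusted p = 0.000582). The combination libraries of both genes lay wholly above the others, and F3 at 10 µM sorafenib, with a mean of 167 CPM, was near its vehicle mean of 173 CPM.

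PLAT, which encodes tissue plasminogen activator, had 165, 249 and 203 CPM in the combination against 134, 83.2 and 115 CPM at 10 µM sorafenib (log2 fold change 0.90, adjusted p = 0.00336), under its vehicle mean of 643 CPM. The calls of F3, F2RL1 and PLAT were stable. SERPINB2, an inhibitor of urokinase, had 5.53, 4.98 and 5.03 CPM in the combination against 1.26, 2.32 and 2.15 CPM at 10 µM sorafenib, and thrombomodulin (THBD), which turns thrombin against clotting, averaged 50.1 CPM in the combination and 32.7 CPM at 10 µM sorafenib. The calls of SERPINB2 and THBD both ended without combination replicate 3 or 10 µM replicate 1. The urokinase gene PLAU and its receptor PLAUR had log2 differences of -0.25 and 0.01 and were not called.

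**Figure D3:**
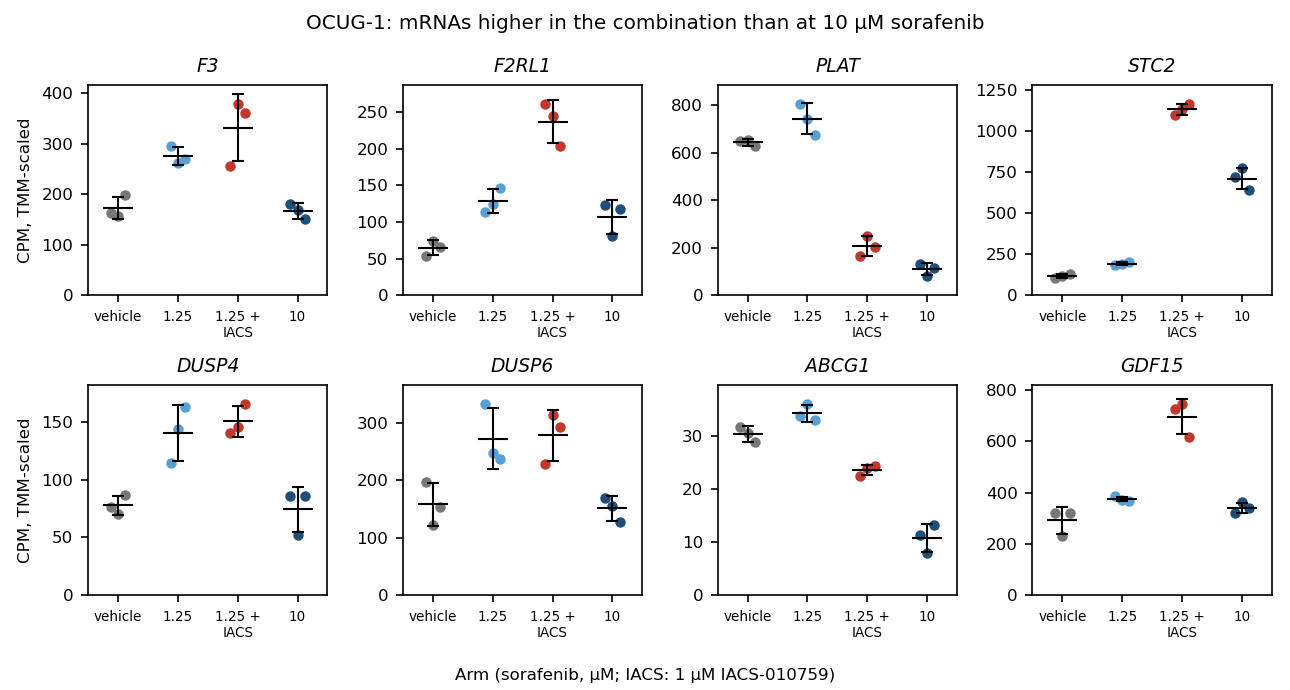
CPM (y axis, TMM-scaled) of 8 genes called higher in the combination than at 10 µM sorafenib, in the 4 OCUG-1 arms (x axis), with points for the libraries and bars for the mean and SD of 3. For DUSP4 the 10 µM mean of 74.5 CPM stands near the vehicle mean of 77.8 CPM, while for PLAT and ABCG1 both arms stand below vehicle.

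Some feedback genes of the MAPK pathway were higher in the combination. DUSP4 and DUSP6 encode phosphatases that switch off MAP kinases and are themselves induced by ERK activity. DUSP4 had 140.5, 146 and 166 CPM in the combination against 86.1, 52 and 85.5 CPM at 10 µM sorafenib (log2 fold change 1.02, SE 0.17, adjusted p = 0.00292, stable). DUSP6 had 227, 314 and 292 CPM in the combination against 169, 156 and 128 CPM at 10 µM sorafenib (log2 fold change 0.88, adjusted p = 0.00992). With 1.25 µM sorafenib alone DUSP4 averaged 140.4 CPM and DUSP6 272 CPM, close to their combination means of 151 and 278 CPM, and DUSP6 at 10 µM sorafenib (151 CPM) was close to vehicle (158 CPM).

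In the MAPK list 4 of 20 tested members rose (3.17% of all tested genes did) and 1 fell (2.08%), with a median log2 difference of 0.10. The sprouty gene SPRY2 (0.57), another feedback inhibitor, and MYC (0.49) completed the rises, and the transcription factor ETV1 (-0.54) fell. The calls of DUSP6, SPRY2, MYC and ETV1 all ended without replicate 3 of either arm, and that of SPRY2 without any single library but 10 µM replicate 2. Other members that both arms raised over vehicle had log2 differences near 0 between them, such as FOSL1 (0.01) and EPHA2 (0.01). EGFR, the epidermal growth factor receptor, had 468, 488 and 551 CPM in the combination against 332, 338 and 278 CPM at 10 µM sorafenib (log2 fold change 0.67, adjusted p = 0.00465), a call that ended without combination replicate 3. Its ligand HBEGF fell, at 116, 93.7 and 70.4 CPM in the combination against 174, 119 and 231 CPM at 10 µM sorafenib (adjusted p = 0.0417), and that call ended without 4 of the 6 libraries.

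The sterol exporters ABCG1 and ABCA1 were higher in the combination. They pump cholesterol out of cells and are targets of the liver X receptors. ABCG1 had 22.6, 24 and 24.5 CPM in the combination against 11.4, 7.99 and 13.2 CPM at 10 µM sorafenib (log2 fold change 1.13, SE 0.14, adjusted p = 0.000343). ABCA1 had 22.8, 28.3 and 26.3 CPM in the combination against 16.7, 12.4 and 15 CPM at 10 µM sorafenib (log2 fold change 0.81, adjusted p = 0.00203). Both calls were stable, and in both arms the genes lay below their vehicle means of 30.5 and 47.1 CPM. The receptor gene NR1H2 also rose (log2 fold change 0.50), though not without replicate 3 of either arm. In the list of cholesterol export 3 of 9 tested members thus rose (3.17% of all tested genes did) and 0 fell. The list median was 0.38, 4 members had a log2 difference below 0, and the summed level overlapped, at 374.6 to 437 CPM in the combination and 330 to 390.5 CPM at 10 µM sorafenib. In the list of cholesterol synthesis and uptake 2 of 25 fell (2.08% of all tested genes did) and 0 rose, with a median of -0.32. The sterol carrier STARD4 fell by 0.50, a call that ended without replicate 3 of either arm.

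KRT17, MMP1 and DHRS3 gave further stable rises. KRT17, a keratin of stressed and basal epithelium, had 6.28, 8.72 and 7.74 CPM in the combination against 2.15, 2.28 and 1.93 CPM at 10 µM sorafenib (log2 fold change 1.83, adjusted p = 4.16e-05). The collagenase MMP1 had 4178, 3085 and 2873 CPM in the combination against 1755, 1616 and 1825 CPM at 10 µM sorafenib (log2 fold change 0.96, adjusted p = 0.00258), with 201 CPM in vehicle. DHRS3, which reduces retinaldehyde to retinol, had 70.2, 86.1 and 85.4 CPM in the combination against 56.2, 41.3 and 58.1 CPM at 10 µM sorafenib (log2 fold change 0.64, adjusted p = 0.00548). All 3 genes were separate between the arms. The retinol receptor STRA6 rose by 0.55, a call that ended without replicate 3 of either arm. In the retinoid list 5 of 19 tested members rose (3.17% of all tested genes did) and 1 fell (2.08%), with a median of 0.08. Heme oxygenase (HMOX1), an antioxidant enzyme, had 73, 86.8 and 92.7 CPM in the combination against 54.2, 56.1 and 57.9 CPM at 10 µM sorafenib (log2 fold change 0.59, adjusted p = 0.00314, stable). In the NRF2 and antioxidant list, with a median of 0.04, 0 of 25 members fell and 4 rose (3.17% of all tested genes did). The quinone reductase NQO1 (0.41) was among them, but its call ended without any single library of the 6.

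CCL2, CX3CL1, GBP1 and GBP2 were among the 14 largest falls, ranked by the same rule. CCL2, which attracts monocytes, had 45, 56.6 and 31.9 CPM in the combination against 149, 70.6 and 199.7 CPM at 10 µM sorafenib (log2 fold change -1.65, SE 0.31, adjusted p = 0.0142). CX3CL1 (fractalkine) had 6.16, 6.13 and 4.26 CPM in the combination against 12.7, 9.33 and 19.7 CPM at 10 µM sorafenib (log2 fold change -1.32, adjusted p = 0.0022, stable). The 10 µM libraries of both genes spread widely, with replicate 3 highest and replicate 2 lowest, and the CCL2 call ended without combination replicate 3.

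GBP1 (GRCh38 chromosome 1, 89052319 to 89065360), a guanylate-binding protein of the interferon response, had a narrow spread, with 11.9, 12.1 and 12.2 CPM in the combination against 30.6, 27.9 and 31.7 CPM at 10 µM sorafenib (log2 fold change -1.32, SE 0.13, adjusted p = 3.78e-05). Its vehicle mean of 16.3 CPM lay between the arms. GBP2 had 21.4, 21.8 and 18 CPM in the combination against 43.2, 36.1 and 51 CPM at 10 µM sorafenib (log2 fold change -1.09, adjusted p = 0.000453), below its vehicle mean of 79.6 CPM, and both calls were stable. In the interferon list, which does not hold GBP1 or GBP2, 1 of 35 tested members was called (5.25% of all tested genes were), with a median of -0.07. That member was the RNA sensor OAS1, which rose, at 51.2, 55.9 and 57.8 CPM in the combination against 40.3, 37.1 and 34.9 CPM at 10 µM sorafenib (log2 fold change 0.55, adjusted p = 0.00374, stable).

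SOD2, the superoxide dismutase of mitochondria, had 751, 755 and 533 CPM in the combination against 1519, 976 and 1954 CPM at 10 µM sorafenib (log2 fold change -1.13, adjusted p = 0.00666, stable), and its vehicle mean was 2122 CPM. PDZK1IP1, a small membrane protein of epithelia, had 30.4, 35.2 and 24.3 CPM in the combination against 67.9, 54 and 89.6 CPM at 10 µM sorafenib (log2 fold change -1.23, adjusted p = 0.000372, stable). NPY1R, a neuropeptide Y receptor, averaged 7.04 ± 0.587 CPM in the combination and 15.2 ± 2.42 CPM at 10 µM sorafenib (SD, n = 3 each). NPY1R, METTL7A and SEPTIN4 fell by 1.11, 1.28 and 1.09 on the log2 scale, all stable. TENT5C, a poly(A) polymerase, averaged 5.76 CPM in the combination and 14.7 CPM at 10 µM sorafenib, with 0.726 CPM in vehicle. TENT5C, the PI3-kinase inhibitor PIK3IP1, the orphan receptor GPRC5B, the differentiation inhibitor ID2 and the spindle protein FAM83D fell by 1.16 to 1.34, and each of these calls ended under at least 1 alternative. All but that of PIK3IP1, which was not called when the 6 libraries were fitted alone, ended without replicate 3 of either arm.

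NF-kB targets moved in both directions. Of 24 tested members 3 rose (3.17% of all tested genes did) and 5 fell (2.08%), with a median log2 difference of -0.19. The cytokine LIF had 112, 144 and 142 CPM in the combination against 76.3, 76.2 and 60.0 CPM at 10 µM sorafenib (log2 fold change 0.91, adjusted p = 0.00267, stable). LCN2, which binds bacterial iron carriers, had 210.3, 261 and 225 CPM in the combination against 136, 159.7 and 122 CPM at 10 µM sorafenib (log2 fold change 0.74, adjusted p = 0.00255, stable). IL1B also rose, by 0.87, a call that ended without combination replicate 3. Among the members that fell, the apoptosis inhibitor BIRC3 had 33.6, 25.9 and 26.1 CPM in the combination against 48.2, 40.3 and 54.1 CPM at 10 µM sorafenib (log2 fold change -0.74, adjusted p = 0.00476, stable). CCL2, the chemokine CXCL5, the acute-phase gene SAA1 and the NF-kB inhibitor TNFAIP3 were the others, with log2 fold changes of -1.01 for CXCL5, -1.44 for SAA1 and -0.42 for TNFAIP3, and their calls ended without combination replicate 3. SAA1 has a near-identical neighbour, so its reads are uncertain. CXCL8 had 1850, 1727 and 1330 CPM in the combination against 1868, 1563 and 2155 CPM at 10 µM sorafenib, which overlap.

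Among the 58 gene lists, cytosolic heat shock genes had the largest share of called members. They encode the chaperones and co-chaperones that HSF1 induces when proteins misfold. Of 17 tested members 9 were lower in the combination and 0 higher, with a median log2 difference of -0.44 against 0.00 over all tested genes, of which 2.08% were called lower. The summed level of the 17 genes was 9970, 8669 and 7603 CPM in the combination against 11270, 10160 and 13780 CPM at 10 µM sorafenib, without overlap. In vehicle the sum was 3572 to 4203 CPM. Against vehicle 16 members were higher in the combination (31.5% of all tested genes were) and 17 at 10 µM sorafenib (32.4%), with medians of 1.53 and 2.02, in comparisons that share the vehicle libraries. The calls moved with single libraries, while the list median was -0.62 to -0.34 and 16 or 17 members lay below 0 without each of the 6. Replicate 3 of the combination was the lowest of the 6 libraries for 14 members and replicate 3 of the 10 µM arm the highest for 14, and 0 members were called with edgeR without combination replicate 3 (11 at an unadjusted p under 0.05), 2 without 10 µM replicate 3, 3 without combination replicate 2 and 4 without 10 µM replicate 1.

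BAG3 (GRCh38 chromosome 10, 119651370 to 119677819), the co-chaperone that steers misfolded proteins to autophagy, had 626, 572 and 460 CPM in the combination against 805, 746 and 985 CPM at 10 µM sorafenib (log2 fold change -0.61, SE 0.12, adjusted p = 0.00869). HSPH1, a nucleotide exchange factor of HSP70, had 798, 739 and 625 CPM in the combination against 1071, 1040 and 1268 CPM at 10 µM sorafenib (log2 fold change -0.64, adjusted p = 0.0128). The inducible HSP70 gene HSPA1A had 215, 206 and 181 CPM in the combination against 322, 256 and 568 CPM at 10 µM sorafenib (log2 fold change -0.93, adjusted p = 0.0213). For these genes the arms did not overlap, and replicate 3 of the combination was the lowest and replicate 3 of the 10 µM arm the highest library. HSPA1A and its near-identical neighbour HSPA1B (-0.66) share reads, so the split between them is uncertain. The small heat shock genes HSPB1 and HSPB8 fell by 0.77 and 0.53, and HSPA4, CHORDC1 and AHSA1 fell by 0.32 to 0.35. HSF1 itself (0.07), the constitutive HSPA8 (-0.24) and the HSP90 genes HSP90AA1 (-0.36) and HSP90AB1 (-0.24) were not called.

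**Figure D4:**
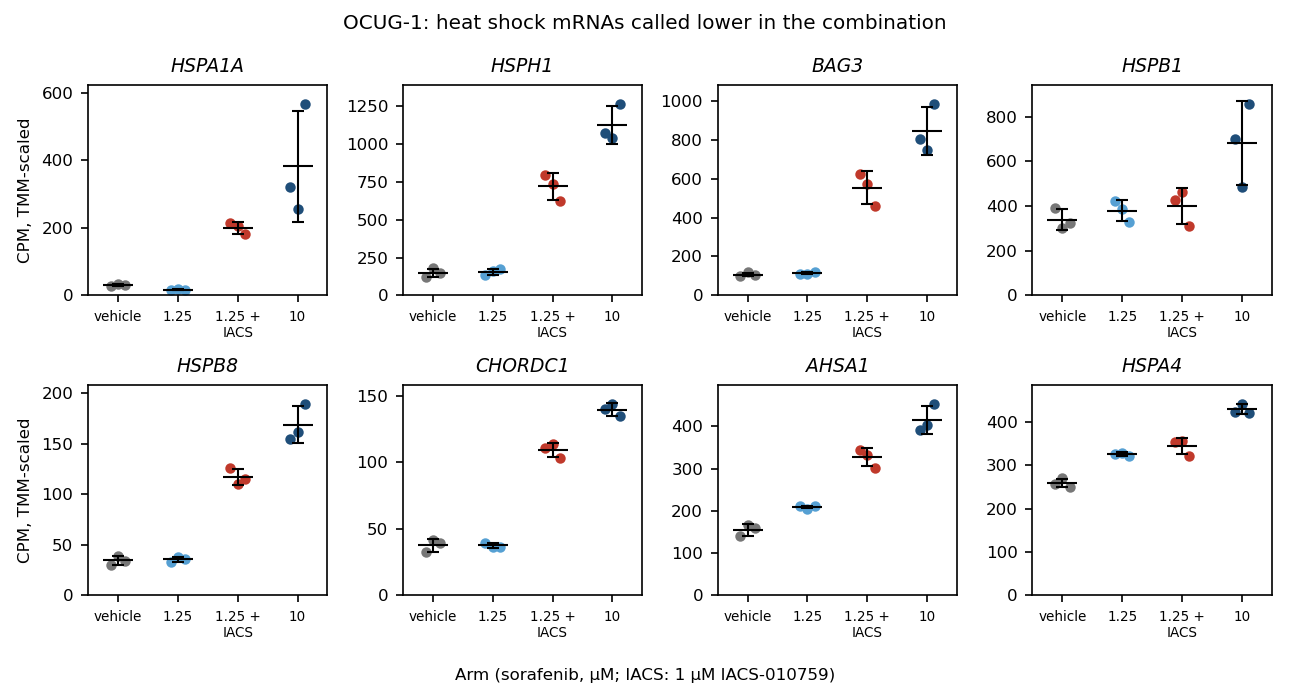
CPM (y axis, TMM-scaled) of 8 of the 9 heat shock genes called lower in the combination, in the 4 OCUG-1 arms (x axis), with points for the libraries in replicate order and bars for the mean and SD of 3. The combination mean stands between vehicle and 10 µM sorafenib for each gene, as for BAG3 with 552 CPM in the combination and 846 CPM at 10 µM sorafenib, and the third 10 µM point of HSPA1A is at 568 CPM.

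Promoters of heat shock genes are shown because that list held the largest share of called genes. Heat shock elements are built from alternating GAA and TTC units, so the 250 bases before each RefSeq start (GRCh38.p14) were searched for GAANNTTC and TTCNNGAA, each of which is its own reverse complement. At least 1 match stood in a promoter of 10 of the 15 members found in the table, namely 5 of the 9 called lower and 5 of the 6 not called, and 14% of the 27305 genes in the table have such a promoter. BAG3, HSPH1, HSPA4 and AHSA1 were called lower and hold 0 matches. The 3 sequences below were chosen among called members with a match, and the call of CHORDC1 ended under 9 of the 14 alternatives. Capitals mark the matches, which overlap in CHORDC1, where 6 were found. The stretches lie at chr6:31815293-31815542 (HSPA1A, plus strand), chr12:119178681-119178930 (HSPB8, plus strand) and chr11:90223050-90223299 (CHORDC1, minus strand).
HSPA1A: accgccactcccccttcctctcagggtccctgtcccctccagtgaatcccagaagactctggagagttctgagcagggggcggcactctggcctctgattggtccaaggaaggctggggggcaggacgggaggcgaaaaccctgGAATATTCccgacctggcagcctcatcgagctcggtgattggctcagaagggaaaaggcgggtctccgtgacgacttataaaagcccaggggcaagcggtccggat
HSPB8: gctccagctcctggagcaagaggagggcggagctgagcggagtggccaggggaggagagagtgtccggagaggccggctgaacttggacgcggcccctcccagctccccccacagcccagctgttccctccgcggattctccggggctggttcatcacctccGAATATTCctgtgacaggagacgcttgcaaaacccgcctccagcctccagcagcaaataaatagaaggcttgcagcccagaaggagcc
CHORDC1: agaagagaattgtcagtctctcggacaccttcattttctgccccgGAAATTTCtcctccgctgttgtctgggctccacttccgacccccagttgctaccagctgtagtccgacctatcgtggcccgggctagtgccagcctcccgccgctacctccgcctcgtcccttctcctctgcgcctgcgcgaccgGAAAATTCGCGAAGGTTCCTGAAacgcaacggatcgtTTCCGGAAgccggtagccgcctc

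In the unfolded protein response list of the endoplasmic reticulum all 24 tested members had a log2 difference below 0, from -0.60 to -0.06. The median was -0.34. Of these members 2 were called lower (2.08% of all tested genes were) and 0 higher. DNAJB11, a co-chaperone of BiP, had 426, 343 and 305 CPM in the combination against 486, 587 and 559 CPM at 10 µM sorafenib (log2 fold change -0.60, adjusted p = 0.00645), and SDF2L1 fell by 0.39. The combination libraries lay below the others for both genes. The number of members called lower was 0 without combination replicate 3 and 14 without combination replicate 1.

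The integrated stress response was raised over vehicle in both arms, and some of its genes differed between them. Against vehicle 32 of 36 members were higher in the combination (31.5% of all tested genes were) and 31 at 10 µM sorafenib (32.4%). Between the arms 4 rose (3.17% of all tested genes did) and 1 fell (2.08%), with a median log2 difference of 0.10. GDF15 (GRCh38 chromosome 19, 18374731 to 18389176), a secreted stress cytokine, had 724, 746 and 617 CPM in the combination against 322, 362 and 338 CPM at 10 µM sorafenib (log2 fold change 1.03, SE 0.12, adjusted p = 0.000179, stable), with 291 CPM in vehicle. Stanniocalcin 2 (STC2), a secreted glycoprotein, had 1101, 1136 and 1169 CPM in the combination against 719, 774 and 642 CPM at 10 µM sorafenib (log2 fold change 0.67, adjusted p = 0.00106, stable). The amino acid transporter SLC7A5 had 505, 561 and 555 CPM in the combination against 342, 384 and 386 CPM at 10 µM sorafenib (log2 fold change 0.54, adjusted p = 0.00365, stable). For these 3 genes all combination libraries lay above all others. The cystine transporter SLC7A11 rose by 0.53 and the hormone FGF21, at 1.04 CPM in the combination and 2.48 CPM at 10 µM sorafenib, fell by 1.25, calls that ended without replicate 3 of either arm. ATF4 (0.02), DDIT3 (-0.31) and ATF3 (-0.26) were not called.

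The target of IACS-010759 belongs to the respiratory chain. Of 37 tested complex I subunits 2 rose (3.17% of all tested genes did) and 0 fell, a count that does not set the list apart. The 2 were NDUFV1 (0.40) and NDUFS8 (0.36), and the list median was 0.00. The call of NDUFV1 ended without replicate 3 of either arm or 10 µM replicate 2, and that of NDUFS8 ended under 11 of the 14 alternatives, among them each left-out library. Among 13 mRNAs of mitochondrial DNA 0 fell and 1 rose (3.17% of all tested genes did). That mRNA, MT-CO2, which encodes a subunit of cytochrome c oxidase, had 3890, 5330 and 4062 CPM in the combination against 3129, 2525 and 2823 CPM at 10 µM sorafenib (log2 fold change 0.65, adjusted p = 0.0135), a call that ended without combination replicate 2 or 10 µM replicate 3. MT-ND1 had 2399, 3313 and 2261 CPM in the combination against 2819, 2165 and 2623 CPM at 10 µM sorafenib, which overlap. The median log2 difference of the 13 mRNAs was 0.16, and 1 of them lay below 0. Their summed level was 35910, 49270 and 38180 CPM in the combination against 37530, 31990 and 34090 CPM at 10 µM sorafenib, which overlap. All 13 mRNAs were lower than vehicle in the combination (28.1% of all tested genes were) and at 10 µM sorafenib (30.7%). The share of counts from all genes of mitochondrial DNA, not these mRNAs alone, was 5.43 ± 0.926% in the combination and 5.95 ± 0.298% at 10 µM sorafenib (SD, n = 3 each). The difference was -0.516 percentage points (exact permutation test, two-sided p = 0.4, where the smallest possible p is 0.1).

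Glycolysis genes gave 3 rises among 24 (3.17% of all tested genes rose) and 0 falls, with a median of 0.12. PFKFB4, which makes the glycolytic activator fructose-2,6-bisphosphate, had 23.4, 27.1 and 24.8 CPM in the combination against 12.9, 8.57 and 11.2 CPM at 10 µM sorafenib (log2 fold change 1.20, adjusted p = 0.000421, stable). The glucose transporter SLC2A1 and the phosphofructokinase PFKP rose by 0.64 and 0.47. The call of SLC2A1 ended without any single library of the 6, and that of PFKP without replicate 2 or 3 of either arm.

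Mitosis genes were lower than vehicle in both arms. All 24 were called below vehicle in the combination (28.1% of all tested genes were) and at 10 µM sorafenib (30.7%). Between the arms 0 were called with edgeR, 11 had an unadjusted p under 0.05 and 6 were called by DESeq2. Over all genes 4526 of 20511 had an unadjusted p under 0.05, and DESeq2 called 1740 of 16532. The median log2 difference of the mitosis genes was -0.15, and 20 of the 24 lay below 0. The proliferation marker MKI67 had 73.8, 69.9 and 76 CPM in the combination against 77.8, 71 and 77.6 CPM at 10 µM sorafenib, which overlap, with 231 CPM in vehicle. In 10 of the 58 lists, including subunits of complexes II to V, the cytosolic ribosome and the proteasome, 0 members were called with edgeR. Of their 258 tested genes 32 had an unadjusted p under 0.05 and 10 were called by DESeq2. These lists were picked for holding 0 calls. As shares of the 258 genes, the counts of 32 and 10 lie below the shares over all genes given above. Histone genes gave 4 falls among 30 tested (2.08% of all tested genes fell), with a median of -0.96, and copies of these genes share reads. H2BC12 had 32.3, 29.9 and 28.5 CPM in the combination against 47.5, 48.9 and 51.1 CPM at 10 µM sorafenib (log2 fold change -0.70, adjusted p = 0.00783). Of 15 BCL2 family genes 2 fell (2.08% of all tested genes did) and 1 rose (3.17%). The death-promoting PMAIP1 and BCL2L11 fell by 0.60 and 0.54, and the protective BCL2L1 rose by 0.50. PMAIP1 had 342, 302 and 272 CPM in the combination against 478, 436 and 470.2 CPM at 10 µM sorafenib. The calls of H2BC12, PMAIP1, BCL2L11 and BCL2L1 ended without combination replicate 3.

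In HuCCT1 the same comparison called 404 genes higher (2.06% of 19576) and 1102 lower (5.63%), and the count of 1506 was 453 to 669 without each of the combination libraries and 799 without 10 µM replicate 1. The difference between the lines was itself tested in 1 fit of 24 libraries. It was called for 345 of 22944 genes (1.5%), with the larger value in OCUG-1 for 238 of them, and for 125 without OCUG-1 combination replicate 3, 143 without OCUG-1 10 µM replicate 3 and 543 without OCUG-1 10 µM replicate 2. It was called for 150 to 191 genes without each HuCCT1 combination library and for 224 without HuCCT1 10 µM replicate 1. Of the 36 integrated stress response genes 12 had a larger value in OCUG-1 and 0 a smaller one, with a median difference between the lines of 0.56 on the log2 scale. In HuCCT1 17 of 33 of these genes fell and 0 rose, with a median of -0.47.

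In HuCCT1 replicate 3 of the 10 µM arm stood apart. The summed stress response level was 3655, 3862 and 3695 CPM in the HuCCT1 combination against 4328, 4425 and 6341 CPM at 10 µM sorafenib, and the summed mitosis level was 4143, 4385 and 4057 CPM in the combination against 4367, 4829 and 2655 CPM at 10 µM sorafenib. Without that library 12 stress response genes fell in HuCCT1 (median -0.33) and 11 had a larger value in OCUG-1 (median 0.47). Without each HuCCT1 combination library 7 to 10 fell and 6 or 7 had a larger value in OCUG-1. The number with a larger value in OCUG-1 was 6 without replicate 3 of either OCUG-1 arm and 7 without OCUG-1 10 µM replicate 1.

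ASNS, which makes asparagine, had 6.22, 7.14 and 7.03 CPM in the combination against 5.77, 4.02 and 5.38 CPM at 10 µM sorafenib in OCUG-1 (0.43 on the log2 scale, not called). In HuCCT1 it had 1.48, 2.24 and 1.34 CPM in the combination against 5.97, 4.92 and 13.9 CPM at 10 µM sorafenib (log2 fold change -2.28, line difference 2.69, adjusted p = 0.000807). Without 10 µM replicate 3 these values were -1.70 and 2.11 (adjusted p = 0.00119). SLC7A11 rose by 0.53 in OCUG-1. In HuCCT1 it had 48.2, 51 and 51.4 CPM in the combination against 80.2, 65.3 and 145 CPM at 10 µM sorafenib (log2 fold change -0.95, line difference 1.46, adjusted p = 0.00505), and without 10 µM replicate 3 these values were -0.54 and 1.06 (adjusted p = 0.0021). OAS1 rose by 0.55 in OCUG-1 and had a log2 fold change of -0.91 in HuCCT1 (line difference 1.45, adjusted p = 0.000577), and without HuCCT1 10 µM replicate 3 the line difference was 1.70 (adjusted p = 8.74e-08).

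Of the heat shock genes 2 of 17 differed between the lines (1.5% of all tested genes did), both lower in OCUG-1. They were BAG3 (line difference -0.76, adjusted p = 0.00946) and AHSA1 (-0.56, adjusted p = 0.0326). In HuCCT1 1 of 16 was called lower, near the 5.63% of all tested genes that were. The line differences of both ended without replicate 3 of either OCUG-1 arm, where 0 of 17 were called with edgeR and 5 had an unadjusted p under 0.05, and that of AHSA1 ended without 6 other single libraries as well. CYP1A1, ABCG1 and KRT17 were higher in the combination in both lines, with log2 fold changes in HuCCT1 of 3.48, 1.38 and 1.12, and their line differences of -0.44, -0.30 and 0.70 were not called. That of KRT17 was called without HuCCT1 10 µM replicate 3 (0.78 (adjusted p = 0.0304)) or OCUG-1 combination replicate 1, and the ABCG1 call in HuCCT1 ended without 10 µM replicate 1 or any of the combination libraries.

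**Figure D5:**
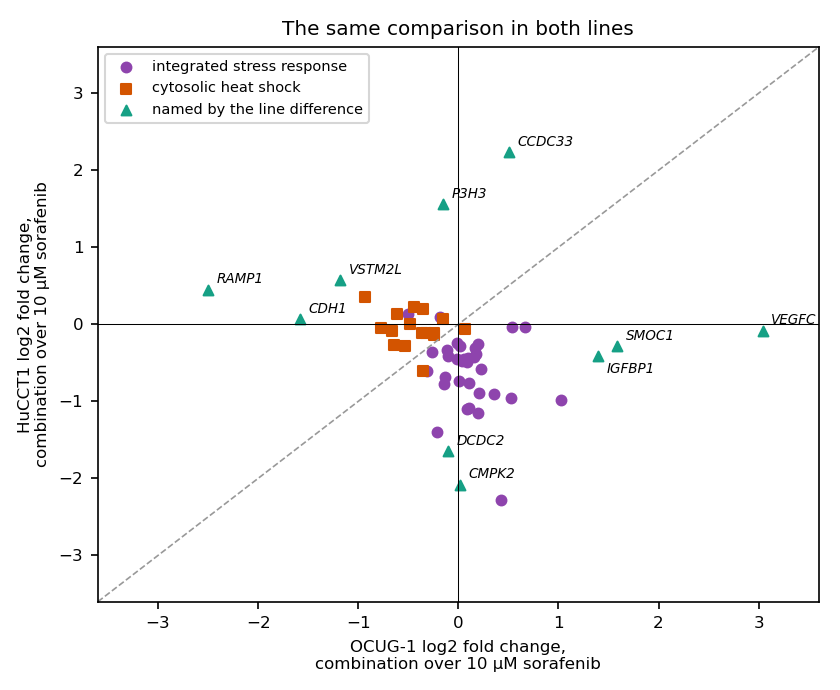
Log2 fold change of the combination over 10 µM sorafenib in OCUG-1 (x axis) and HuCCT1 (y axis) for the genes of 2 lists and for 10 genes named by their line difference, 1 point per gene, with equal values on the dashed line. Stress response genes lie mostly under the dashed line, with list medians of 0.10 in OCUG-1 and -0.47 in HuCCT1, and heat shock genes lie mostly left of 0.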

How the data were processed

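RNA was measured by paired-end mRNA sequencing. The deposited values are raw counts per gene and library. Per the submitters' processing notes the tools were fastp 1.3.2, HISAT2 2.2.2, featureCounts from Subread 2.1.1, MultiQC 1.33, R 4.4.1 and DESeq2 1.42.1, with build GRCh38. Annotation, strand setting and handling of multi-mapping reads were not stated in these sources. Per the design text, 4 OCUG-1 libraries had extra sequencing runs, and which ones is not stated.

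Counts were fitted with edgeR 4.0.16 and limma 3.58.1 in R 4.3.3 (TMM scaling, genes kept by filterByExpr at a minimum count of 10, robust quasi-likelihood F test, Benjamini-Hochberg adjustment over all genes tested, called at 0.05). The 12 OCUG-1 libraries shared 1 fit, the 12 HuCCT1 libraries another, and all 24 the fit of the line difference. DESeq2 1.42.0, other scalings and filters, a replicate block, the 6 libraries alone and each library left out were the alternatives. CPM are TMM-scaled. Of 78724 gene IDs 61481 matched the name table. Replicates differed beyond sampling noise (chi-square per degree of freedom 8.43 to 21.8 within the arms), and the biological coefficient of variation was 0.131. On simulated counts for the main comparison (20511 genes, 4 simulations of 200 changed genes) 76.1% of 2-fold changes were recovered and 6.28% of calls were false. Those counts were drawn independently for each gene and library. The shares therefore do not cover single libraries in which many genes shift together, and the false share of the calls above is not known.

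Named genes are the 14 largest rises and 14 largest falls among called protein-coding genes that averaged 10 CPM or more in the arm where they were higher and did not overlap, up to 4 called members of each list by adjusted p, a panel of 24 genes, and the 5 largest line differences each way. Other list members named with values were chosen after their values were seen. Some members counted in their lists are not reported here by name. Members and lists were chosen with earlier results of these data known.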

Additional observations from a re-analysis of the deposited data

Results flagged for a closer look

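The difference between the combination and 10 µM sorafenib was not the same in the 2 lines for 345 genes, by a test of the difference itself in 1 fit of all 24 libraries (edgeR's quasi-likelihood test with Benjamini-Hochberg adjustment). The values that follow are OCUG-1 minus HuCCT1 on the log2 scale.

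The larger value was in OCUG-1 for VEGFC (3.10, adjusted p = 0.000577), a growth factor for lymphatic vessels, and for the nucleotide kinase gene CMPK2 (2.08), SMOC1 (1.85), IGFBP1 (1.80) and DCDC2 (1.54). VEGFC rests on few reads, with 18, 25 and 10 counts in the OCUG-1 combination and 4, 2 and 1 at 10 µM sorafenib. CMPK2 and DCDC2 had log2 differences of 0.02 and -0.10 in OCUG-1 and fell in HuCCT1, where their log2 fold changes were -2.08 and -1.65.

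The smaller value was in OCUG-1 for RAMP1 (-2.94), P3H3 (-1.78), VSTM2L (-1.77), CCDC33 (-1.75) and the cadherin gene CDH1 (-1.65). RAMP1 had 1, 2 and 0 counts in the OCUG-1 combination and 8, 4 and 9 at 10 µM sorafenib. CDH1 had 8, 8 and 5 counts in the OCUG-1 combination and 24, 16 and 31 at 10 µM sorafenib. The calls of RAMP1 and CDH1 ended without replicate 3 of either OCUG-1 arm, and those of CMPK2, P3H3 and CCDC33 ended without HuCCT1 combination replicate 1 or other single libraries.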

How the results depend on the processing

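Beside 1077 called genes, the fit with the replicate block called 659 (654 of them also called without it), DESeq2 called 1740, and a fit of the 6 libraries alone called 717. Without 1 library the count was 197 to 1509. Whether replicate numbers pair libraries across arms is not stated. Same-numbered deviations from the arm means correlated at -0.177 to -0.113 in these arms and at -0.196 to 0.244 over all OCUG-1 arms. Other-numbered ones correlated at -0.224 to 0.186 over all OCUG-1 arms. These overlapping ranges cannot decide whether the numbers pair libraries, so the block is given as a check only.

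The 9 heat shock genes called lower became 5 with the replicate block, 3 with the 6 libraries alone and 0 to 13 without 1 library. In HuCCT1 the count of 1506 was 453 to 1460 without 1 library. The line difference was called for 732 genes with DESeq2 and for 125 to 543 without 1 library, beside 345.

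Of 100 named genes that were called, 43 kept their call under all 14 alternatives, 57 lost it under at least 1, and 0 changed sign. Leaving out combination replicate 3 ended 55 of these calls and leaving out 10 µM replicate 3 ended 43. The median log2 difference of all genes moved by -0.039 to 0.03. The causes were not tested. In simulated data of this size 44.8% of genes changed 1.5-fold were recovered and 97.7% of those changed 4-fold, so small differences can be missed at this depth and replicate number.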

Other observations

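Of 14 tested biliary epithelial markers 1 rose and 0 fell in OCUG-1, and of 5 tested hepatocyte markers 0 were called with edgeR. Of all tested genes 5.25% were called. The marker that rose, the anion exchanger SLC4A2, had 153, 159 and 171 CPM in the combination against 124, 98.5 and 107 CPM at 10 µM sorafenib (log2 fold change 0.55, adjusted p = 0.00452 with edgeR, stable). The fibrinogen chain FGA had 0.228, 0.431 and 0.332 CPM in the combination against 1.5, 0.937 and 1.3 CPM at 10 µM sorafenib, with 61.2 CPM in vehicle, and the complement protease C1R had 57.7, 56.2 and 44.5 CPM in the combination against 84.1, 71.5 and 106 CPM at 10 µM sorafenib. FGA and C1R fell (log2 fold changes -1.88 and -0.72, both stable). Of 17 tested fibrinogen and complement genes 3 fell (2.08% of all tested genes did), with a median of -0.39.

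POLRMT, the RNA polymerase of mitochondria, had 86.5, 91.2 and 97.8 CPM in the combination against 63.1, 64 and 55.7 CPM at 10 µM sorafenib (log2 fold change 0.59, adjusted p = 0.00387 with edgeR, stable). In its list of mitochondrial biogenesis regulators 2 of 12 tested members rose (3.17% of all tested genes did) and 1 fell (2.08%), with a median of 0.20. Of 76 mitochondrial ribosome genes 2 fell, near the 2.08% of all tested genes that did. They were MRPL18 (by 0.44) and MRPL39 (by 0.40), and neither call held without replicate 3 of either arm. The fibroblast marker THY1 had 7.64, 5.56 and 5.2 CPM in the combination against 11.9, 9.46 and 12.6 CPM at 10 µM sorafenib (log2 fold change -0.88, adjusted p = 0.00458 with edgeR, stable), and the endothelial marker ROBO4 had 16.1, 13.3 and 15.2 CPM in the combination against 9.83, 9.95 and 7.99 CPM at 10 µM sorafenib (log2 fold change 0.68, adjusted p = 0.0283 with edgeR), a call that ended without replicate 3 of either arm.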
